A study of Mus musculus with 18 samples.

Results

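The regions described here are places in gene deserts, long stretches of the mouse genome without protein-coding genes, at which CUT&Tag for NFIA and NFIB, transcription factors of the nuclear factor I family, gave strong summits. CUT&Tag marks where a protein sits by tethering a transposase to it through an antibody, and a summit is the position of the highest signal in a called peak. From each of 18 libraries the 30000 autosomal summits with the highest scores were taken, widened by 100 bp on each side and merged, and the 41987 merged regions hit by 3 or more libraries were kept. A region belongs to a gene desert when its midpoint lies more than 100 kb from the span of every protein-coding gene in the RefSeq table of assembly GRCm38.p6, which carries the mm10 coordinates. By this rule 4590 regions, 10.9% of the 41987, were desert regions, and the other 37397 served for comparison.

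The libraries came from 3 stages in the formation of medulloblastoma, a tumor of the cerebellum: granule neuron progenitors (GNP) taken at postnatal day 7, hyperplasia taken at postnatal day 28, and medulloblastomas of adults. All cells were isolated on a Percoll gradient, and each library was made from 100000 cells. There were 3 preparations per stage, each with 1 NFIA and 1 NFIB library. The design text speaks of an engineered mouse model, but the labels give neither its alleles nor a strain, sex or genotype for any group. Stage and age cannot be told apart. GNP and hyperplasia share 2 title dates and the tumor preparations carry other dates, so that date and stage cannot be told apart for tumors. Whether the preparations are different animals is not stated; the p-values therefore speak only of how preparations vary, which can be technical.

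NFI proteins bind DNA as dimers at a palindrome whose arms read TTGGC and GCCAA, and NFIA and NFIB are known to promote the maturation of cerebellar granule neurons. Gene deserts often border genes for developmental regulators and can hold enhancers that act on those genes from far away. A summit in a desert does not say which gene, if any, it acts on, and the flanking genes below serve only to give its place.

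The scores are the −log10 p-values of the authors' peak caller, and the read depth behind them is unknown. Scores from lists of different length are not comparable, so presence among the 30000 top summits and the rank within a library's own list (rank 1 is the highest score) were used. The second NFIA library of hyperplasia stood apart: 20.4% of its top summits had the lowest score kept, against a median of 0.128% over all libraries. Of the 10 granule progenitor markers, all had a top summit in or near the gene in every stage, and the summed numbers per library ran from 43 to 52 in GNP, 27 to 40 in hyperplasia and 36 to 45 in tumors. The 27 belongs to hyperplasia's second NFIA library, while its other libraries had 35 to 40. Gli2 alone gave 12 to 21 of the granule progenitor summits per library. All 7 oligodendrocyte genes likewise had a top summit in every stage, with 9 to 19, 13 to 15 and 13 to 14 per library in the same order. Astrocyte genes gave 12 to 16, 8 to 18 and 9 to 15, with Aqp4 and S100b at 0 in every stage. Purkinje cell and interneuron genes gave 9 to 13, 10 to 14 and 10 to 13. Microglia genes had 2 to 4, 2 to 5 and 2 to 4, and vessel and meninges genes 7 to 10, 4 to 6 and 6 to 8. The part of other cells in the results was not tested.

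A few desert regions lay on the start sites of long noncoding RNA genes, where RefSeq gives the sequence. RefSeq promoter windows of GRCm38.p6, from 250 bases before to 50 after the start, were available for 1704 genes in deserts, and desert regions overlapped those of 82 genes, or 4.81%, all of them lncRNA genes. Of the 96 overlapped windows 64.6% held TTGGC or GCCAA (the same arm read on either strand), against 43.2% of the 2017 desert windows and 46.7% of all 31396 autosomal windows. At least 2 such arms were found in 33.3% of the overlapped windows, against 12.4% of desert windows and 14.4% of all windows. The whole palindrome, TTGGC and GCCAA with any 5 bases between them (it overlaps both arms), was found in 1 overlapped window, which was also the only one in a desert, and in 12 windows of all. These shares are descriptions, and a match is not a bound site.

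The following windows are shown as examples because they hold arms and were overlapped by regions found in all 18 libraries (Gm31592, Gm11734 and Gm31115), or because they hold the most arms (Gm33042) or the whole palindrome (Gm29976). Each is printed on the gene's strand as far as the region covers it, with the arms in capitals. The positions are chr10:91888579-91888878 on the plus strand for Gm31592, chr11:117522930-117523229 on the plus strand for Gm11734, chr4:64282555-64282767 on the plus strand for Gm31115, chr1:114863040-114863339 on the minus strand for Gm33042 and chr7:83383140-83383435 on the minus strand for Gm29976.
Gm31592: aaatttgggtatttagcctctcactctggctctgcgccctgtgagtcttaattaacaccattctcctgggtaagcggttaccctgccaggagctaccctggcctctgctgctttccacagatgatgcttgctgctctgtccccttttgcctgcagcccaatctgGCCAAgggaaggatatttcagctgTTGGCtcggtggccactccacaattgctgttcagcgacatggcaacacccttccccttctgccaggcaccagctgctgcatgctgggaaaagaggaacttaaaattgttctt
Gm11734: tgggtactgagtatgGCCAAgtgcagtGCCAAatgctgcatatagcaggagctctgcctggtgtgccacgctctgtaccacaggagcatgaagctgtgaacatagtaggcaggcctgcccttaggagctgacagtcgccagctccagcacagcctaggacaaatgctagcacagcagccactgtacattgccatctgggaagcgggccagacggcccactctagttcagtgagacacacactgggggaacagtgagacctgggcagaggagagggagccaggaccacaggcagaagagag
Gm31115: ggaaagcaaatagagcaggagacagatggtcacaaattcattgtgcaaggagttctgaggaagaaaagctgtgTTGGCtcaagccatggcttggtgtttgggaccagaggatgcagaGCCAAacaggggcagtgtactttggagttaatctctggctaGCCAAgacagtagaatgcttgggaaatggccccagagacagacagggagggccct
Gm33042: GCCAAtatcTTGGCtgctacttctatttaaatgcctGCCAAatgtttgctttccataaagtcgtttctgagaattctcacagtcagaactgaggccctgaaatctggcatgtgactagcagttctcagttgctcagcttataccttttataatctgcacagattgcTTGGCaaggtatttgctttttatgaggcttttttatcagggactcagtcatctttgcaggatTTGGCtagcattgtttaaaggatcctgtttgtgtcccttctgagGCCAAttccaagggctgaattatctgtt
Gm29976: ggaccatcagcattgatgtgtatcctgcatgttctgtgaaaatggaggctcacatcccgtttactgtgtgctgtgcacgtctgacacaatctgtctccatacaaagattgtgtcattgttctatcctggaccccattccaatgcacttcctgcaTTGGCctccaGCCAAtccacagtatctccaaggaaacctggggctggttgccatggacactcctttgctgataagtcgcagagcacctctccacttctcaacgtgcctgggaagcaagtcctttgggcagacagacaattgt

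The region over the start of Gm31592 lies in the desert between Tmpo, a nuclear lamina protein gene, and Nedd1, a gene needed for spindle assembly, and its best summit ranked between 211 and 4372 in the 18 libraries. The Gm31115 region, between the extracellular matrix gene Tnc and Pappa, ranked between 224 and 9337. With 6 arms, the Gm33042 window was hit by 5 GNP, 6 hyperplasia and 3 tumor libraries, while the Gm29976 window with the whole palindrome was hit by 5, 2 and 2. Of the 82 desert regions over a promoter window, 19 (23.2%) were found in all 18 libraries, against 11.5% of all desert regions.

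Desert regions also covered 8 of the 100 miRNA hairpins of RefSeq that lie in deserts, in 2 clusters. On chromosome 7, between Gm51483 and the imprinted gene Ndn, 5 of 13 Mir344 hairpins were covered, by 5 separate regions of which those of Mir344 and Mir344g were found in all 18 libraries. The mature sequences of these hairpins, of which Mir344 and Mir344-2 give the same, are shown with the seed, bases 2 to 8, in capitals. The 5p forms of miR-344 and miR-344g share a seed, and so do no others among these.
mmu-miR-344-5p: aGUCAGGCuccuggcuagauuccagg
mmu-miR-344g-5p: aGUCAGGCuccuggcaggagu
mmu-miR-344f-5p: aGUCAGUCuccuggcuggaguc
mmu-miR-344i: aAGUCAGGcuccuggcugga
mmu-miR-344-3p: uGAUCUAGccaaagccugacugu
mmu-miR-344g-3p: cAGGCUCUagccaggggcuuga
mmu-miR-344f-3p: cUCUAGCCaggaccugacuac
The Mir344g region (chr7:61982058-61982568) had the strongest summits of these, with ranks from 335 to 6809. The Mir344i region was hit by 1 GNP, 1 hyperplasia and 5 tumor libraries. The other covered hairpins, Mir380, Mir1197 and Mir323, lie on chromosome 12 in the imprinted stretch between Rtl1 and Dio3, the gene for a thyroid hormone deiodinase. All of them were covered by 1 region (chr12:109711723-109712689), and other hairpins of that stretch are not given here. That region was hit by 17 of 18 libraries.

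Deserts by this definition made up 28.8% of the autosomal sequence (708.8 of 2460.7 Mb) and held 10.9% of the regions, or 6.48 desert regions per Mb of desert against 21.3 other regions per Mb elsewhere. Unsequenced gaps of the assembly were not taken out of these lengths. Most desert regions stayed near the border: 62.1% lay 100 to 250 kb from the nearest gene, 26.9% at 250 to 500 kb, 8.93% at 500 to 1000 kb and 2.07% farther. The farthest, chr18:28077537-28078261, lay 2187716 bp from Pik3c3 in the desert beside Celf4, inside the lncRNA gene Gm33860, and was hit by 15 libraries. Next came chr14:90911056-90911332 between Pcdh20 and Pcdh9, 2102506 bp away, with 3 libraries, and chr18:27836802-27837327, 2082544 bp away, with 11. At the border, the 3 regions just inside lay 100009, 100058 and 100065 bp from a gene (Dysf, Ppp1r12a and Epb41l4a) and were hit by 3, 17 and 4 libraries. The 3 just outside lay 99998, 99948 and 99873 bp away (Fhit, Zfp462 and Maf), with 7, 3 and 6 libraries.

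Desert regions were clustered. Another desert region lay within 50 kb of 72.0% of them, and the median distance to the nearest was 21077.5 bp. Of 1407 desert intervals, meaning unbroken stretches more than 100 kb from genes, 917 held a desert region, and 129 with at least 10 held 1907 (41.5%). Among 206 intervals of 1 Mb or more, 36 held none, and unsequenced gaps of the assembly were not taken out of them. Noncoding genes or pseudogenes covered 11.9% of desert sequence, and 20.4% of desert regions lay in one, nearly all in lncRNA genes (924 regions). Density ran from 3.54 per Mb of desert on chromosome 19 to 10.7 on chromosome 9.

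Desert regions were found in fewer libraries than other regions, and with lower-ranking summits. A top summit was found in all 18 libraries at 526 desert regions (11.5%), against 5598 other regions (14.97%), and 32.5% of desert regions, against 28.9% of other regions, were seen in 3 to 5 libraries. In an average library 53.3% ± 3.51 of desert regions, against 56.9% ± 3.43 of other regions, held a top summit (SD over n = 9 preparations). The difference of -3.60 percentage points was negative in 9 of 9 preparations (two-sided exact sign-flip permutation test, p = 0.00391, the smallest it can give). It was -3.24 ± 1.32 in GNP, -3.16 ± 2.39 in hyperplasia and -4.40 ± 0.200 in tumors (SD, n = 3 each), and did not differ between stages beyond the spread (exact permutation test over 1680 arrangements, p = 0.596). Where hit, desert regions had a median rank 610 places lower in the list than other regions, with values from 154 to 816 over the preparations (exact sign-flip permutation test, p = 0.00391).

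**Figure D1:**
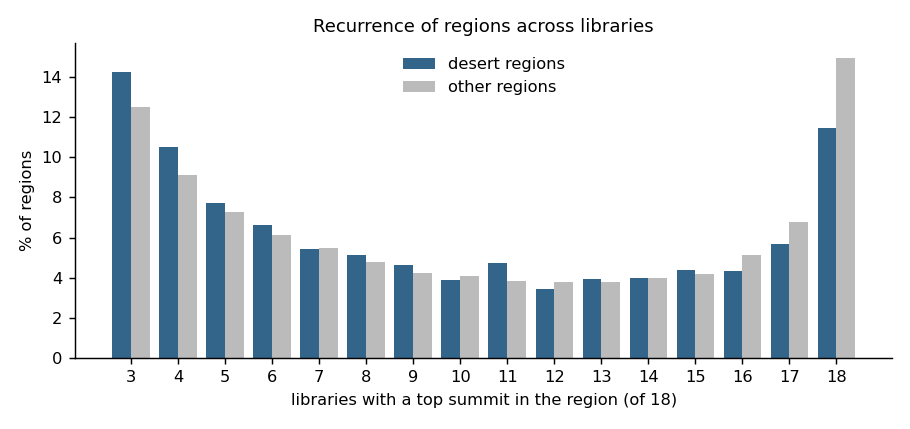
Percent of the 4590 desert regions (blue) and of the 37397 other regions (grey) by the number of libraries, 3 to 18, with a top summit in the region. The bar at 18 libraries is 11.5% for desert regions and 14.97% for other regions, and at 3 libraries 14.2% and 12.5%.

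The 6 desert regions with the best worst rank over all 18 libraries never fell below rank 581. They were chr11:22698525-22698822 between Tmem17, a cilium gene, and B3gnt2 (ranks 11 to 282), chr14:124801625-124802048 beyond Fgf14 (1 to 383), chr2:98666700-98667220 between Lrrc4c, a synaptic adhesion gene, and Iftap (1 to 399), chr10:34904366-34904658 between Frk and Amd2 (20 to 421), chr6:111866137-111866476 between the glutamate receptor gene Grm7 and Lmcd1 (26 to 442), and chr8:35933588-35933909 between Cldn23 and Prag1 (74 to 581). Their libraries thus overlapped fully between stages. The chr2 stretch is known to collect excess reads in mouse sequencing experiments, and its part in that rank was not tested.

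The share of top summits in deserts did not differ between stages beyond the spread of preparations. In GNP preparations 10.4%, 10.5% and 10.4% of the top summits lay more than 100 kb from a gene, in hyperplasia 9.90%, 11.9% and 10.8%, and in tumors 11.1%, 10.4% and 10.2%. The GNP values were nearly equal and fell within the range of both other stages. Hyperplasia differed from GNP by 0.421 percentage points (10.8 ± 0.980 against 10.4 ± 0.0358, SD, n = 3 each, exact permutation p = 0.7) and tumors from GNP by 0.165 (10.6 ± 0.491 against 10.4 ± 0.0358, exact permutation p = 1). For tumors against hyperplasia the difference was -0.256 (exact permutation p = 0.7), and for all 3 stages together p was 0.811 (exact permutation of 1680 arrangements). With 3 preparations against 3 the smallest possible p is 0.1. Within the title date of preparations 1 and 2, hyperplasia had 10.9% and GNP 10.4%, and within that of preparation 3, 10.8% and 10.4%. Leaving out the second NFIA library of hyperplasia, the difference from GNP was -0.0378 points, and that of tumors from hyperplasia 0.203.

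**Figure D2:**
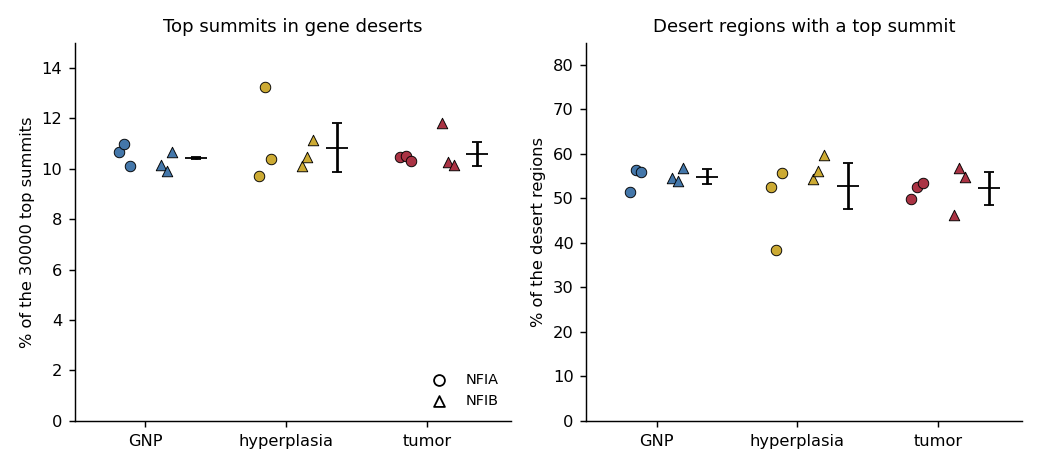
Left, percent of the 30000 top summits of each library that lie more than 100 kb from every protein-coding gene; right, percent of the 4590 desert regions with a top summit. Circles are NFIA and triangles NFIB libraries, 6 per stage; the bar beside them is the mean ± SD of the 3 preparations. The second NFIA library of hyperplasia is the highest on the left (13.2%) and the lowest on the right (38.3%).

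Among the strongest summits the desert share was lowest in hyperplasia. Of the 1000 top summits, 9.80%, 9.05% and 8.80% lay in deserts in GNP preparations, 7.85%, 7.85% and 7.0% in hyperplasia, and 9.30%, 9.40% and 8.90% in tumors. The hyperplasia preparations did not overlap with those of either other stage, while tumors and GNP overlapped. Single libraries did overlap: the second NFIA library of hyperplasia had 9.5% and the second NFIB library of GNP 6.7%. The hyperplasia mean was 7.57 ± 0.491, against 9.22 ± 0.520 in GNP (SD, n = 3 each, difference -1.65 points, exact permutation p = 0.1, the smallest possible), while tumors had 9.20 ± 0.265 (difference from hyperplasia 1.63 points, p = 0.1, and from GNP -0.0167, p = 1, both exact permutation tests). Over the 3 stages the exact permutation p was 0.0357, not adjusted for the other shares compared. In every preparation the share was lower among the 1000 strongest summits than at ranks 20001 to 30000, by 2.85 ± 1.70 points on average (SD, n = 9; exact sign-flip permutation test, p = 0.00391).

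Presence at desert regions followed the stages. The Jaccard index, the number of desert regions hit in both of 2 libraries over the number hit in either, averaged 0.564 over library pairs for preparations of the same stage and 0.492 for those of different stages, a difference of 0.0718 (exact permutation of stages over 9 preparations, p = 0.00357, the smallest possible). At other regions the averages were 0.592 and 0.541 with a difference of 0.0509 (exact permutation, p = 0.00357); whether the 2 differences differ was not tested. Among desert regions the GNP preparations were the most alike (0.615), followed by hyperplasia (0.540) and tumors (0.538). Hyperplasia and tumors shared 0.510, tumors and GNP 0.486, and hyperplasia and GNP 0.481.

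Regions called gained or lost here had a summit in at least 5 of 6 libraries of one stage and at most 1 of 6 of the other; no test was made for single regions. Of the desert regions, 125 (2.72%) were gained and 183 (3.99%) lost in hyperplasia against GNP, where 2.16% of all regions were gained and 2.77% lost. In tumors against GNP 100 (2.18%) were gained, against 2.28% of all regions, and 181 (3.94%) were lost, against 2.54%. Between tumors and hyperplasia 40 (0.871%) were gained, against 1.21% of all regions, and 60 (1.31%) lost, against 1.08%. By the stricter rule of 6 libraries against 0, 24 desert regions (0.523%, against 0.372% of all regions) were gained and 27 (0.588%, against 0.462%) lost in hyperplasia against GNP. In tumors against GNP 19 (0.414%, against 0.412% of all regions) were gained and 33 (0.719%, against 0.362%) lost, and in tumors against hyperplasia 3 (0.0654%, against 0.0976%) were gained and 6 (0.131%, against 0.0691%) lost. By the looser rule the gained share in hyperplasia against GNP lay above that of all regions. It lay near that of all regions in tumors against GNP, and below it in tumors against hyperplasia. The lost shares lay above those of all regions in each pair of stages. Without the second NFIA library of hyperplasia, asking for all but 1 of the libraries left, 229 (4.99%, against 3.63% of all regions) were gained and 206 (4.49%, against 3.12%) lost in hyperplasia against GNP. In tumors against hyperplasia 47 (1.02%, against 1.43%) were then gained and 123 (2.68%, against 2.21%) lost.

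**Figure D3:**
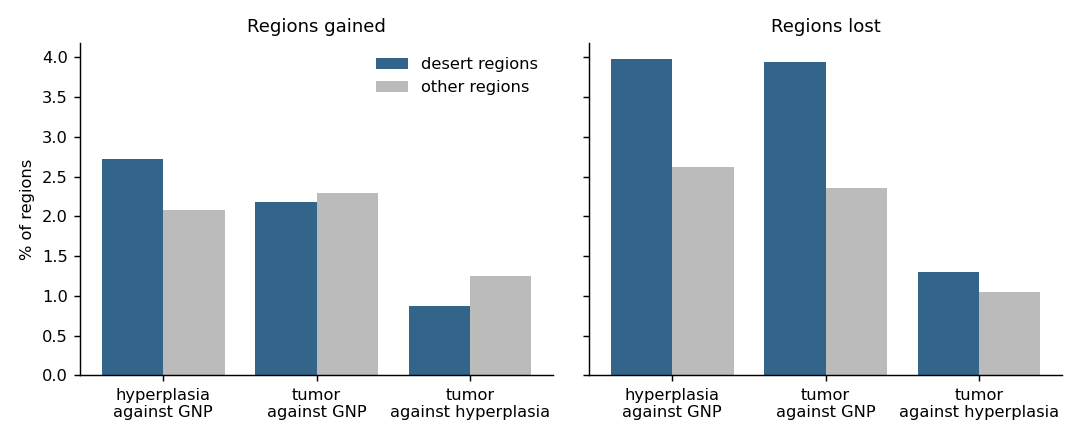
Percent of desert regions (blue) and of other regions (grey) gained (left) and lost (right) for each pair of stages. Lost regions in tumors against GNP were 3.94% of desert regions and 2.36% of other regions; gained regions were 2.18% and 2.29%.

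By distance, which was not tested, loss in tumors against GNP was seen at 3.09% of desert regions 100 to 250 kb from a gene, 5.51% at 250 to 500 kb, 4.39% at 500 to 1000 kb and 7 of 95 (7.37%) beyond. Gain was seen at 2.17%, 2.35%, 2.20% and 0% in the same order. On chromosome 6, 11 desert regions (4.55%) were gained in tumors against GNP and 89 (2.05%) on the other chromosomes together, and 7 (2.89%) and 33 (0.759%) in tumors against hyperplasia. This was not limited to deserts: of all regions, 5.57% on chromosome 6 and 2.07% on the other chromosomes were gained in tumors against GNP, and 3.08% and 1.09% in tumors against hyperplasia.

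The changes were spread over many deserts: the 181 regions lost in tumors against GNP lay in 150 intervals and the 100 gained in 94, with at most 3 and 2 in one interval. The region lost with the best ranks in GNP, chr7:51307811-51308072, lies between Nell1, a gene for a secreted protein of bone and nerve growth, and Ano5. It was found in 0 of 6 tumor libraries and in 6 of 6 GNP libraries, at ranks 910 to 5946, and in 1 of hyperplasia. Next came chr16:93125312-93125744 between Runx1, a transcription factor gene, and Setd4, with 0 tumor and 6 GNP libraries (ranks 3071 to 12031). The third, chr13:15078650-15079528, lies 384634 bp from Gli3, which encodes a transcription factor of the sonic hedgehog pathway that drives the growth of granule progenitors. It was found in 0 tumor libraries, 6 GNP libraries (ranks 4421 to 9305) and 3 of hyperplasia, there no higher than rank 23551.

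Among the regions gained in tumors against GNP were chr11:48250906-48251323 between Sgcd and Rack1, in 6 of 6 tumor libraries (ranks 2311 to 15518) and 0 of 6 GNP libraries, and chr6:31126435-31126907 in the lncRNA gene Lncpint between Klf14 and Mkln1, in 6 tumor libraries (ranks 3808 to 18921) and 0 GNP libraries. Both were found in 5 of 6 hyperplasia libraries. In hyperplasia chr8:120962628-120963027 between Irf8 and Foxf1 and chr3:91263578-91263915 between S100a7l2 and Gm36323 were seen in 6 libraries, and in 0 of GNP. Tumor libraries hit them 5 and 4 times. Lost in hyperplasia against GNP, with 0 hyperplasia and 6 GNP libraries each, were chr3:8141679-8142251 between Il7 and Stmn2, a neuronal microtubule regulator, chr12:57926940-57927268 between Ttc6 and Sstr1, and chr3:39592464-39592763 between Fat4 and Intu. Each of these had 1 tumor library.

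Between tumors and hyperplasia, gains (6 tumor and 0 hyperplasia libraries) were led by chr15:62812192-62812493, 821981 bp from Myc, chr4:152832842-152833609 between Nphp4 and Ajap1, and chr6:31917401-31918077 between Podxl and 1700012A03Rik. GNP libraries hit them 2, 3 and 2 times. Losses (0 tumor and 6 hyperplasia libraries) were led by chr9:82609989-82610323 between Mei4 and Irak1bp1, chr1:101122430-101122809 between Cntnap5b and the cadherin gene Cdh20, and chr2:98354194-98354621 between Lrrc4c and Iftap. These were hit by 1, 5 and 6 GNP libraries in the same order, so that tumors were the only stage to lack the second and the last.

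Only GNP libraries, and all 6 of them, hit 12 desert regions, of 54 such among all regions. All 6 hyperplasia libraries and no others hit 1 desert region (7 among all regions), chr1:141030501-141030885 between Kcnt2 and Cdc73, and 0 desert regions (8 among all) belonged to tumors in this way. The 5 GNP regions with the best ranks lay between Tox3 and Chd9 (chr8:90555643-90556036), Sdk2 and Rpl38 (chr11:114379465-114379832), Shh and Rnf32 (chr5:28611813-28612324), 4930474N05Rik and Ccser2 (chr14:36614621-36615296), and Lrrc7 and Depdc1a (chr3:159121705-159122176). The region near Shh, the gene for the hedgehog ligand, lies 144967 bp from it in the lncRNA gene 9530036O11Rik, and ranked from 3873 to 27218 in GNP.

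To test whole deserts, the numbers of top summits in each desert interval and in pieces of at most 1 Mb of the remaining sequence were compared between stages in 1 limma fit on log2(summits + 0.5) per preparation, over 2966 intervals of which 738 were deserts. Fold changes on this scale understate changes of low numbers and, where a group has no summit, depend on the pseudocount. In tumors against GNP 24 deserts passed a Benjamini-Hochberg adjusted p of 0.05, 13 with more and 11 with fewer summits in tumors; 2.9% of all intervals passed and 3.25% of deserts. In hyperplasia against GNP 8 deserts passed, all with more summits in hyperplasia, where 0.641% of all intervals did. Tumors against hyperplasia gave 2, both with fewer summits in tumors, where 0.337% of all intervals did. Without chromosome 6, 11 of 693 deserts passed in tumors against GNP (4 more, 7 fewer), and 25 of all 2776 intervals did. With ties in score broken at random 44 of 742 deserts and 161 of all 2970 intervals passed. Leaving out 1 GNP or tumor preparation gave 5 to 14 deserts for tumors against GNP, the lowest without the third tumor preparation. Of all intervals 15 to 41 passed in these fits. For hyperplasia against GNP the count was 0 without the second or without the third preparation of hyperplasia, and 3 without its second NFIA library. Among all intervals 0, 1 and 11 passed, in the same order.

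The desert of 625.5 kb between AW209491 and Gli3 (chr13:14738203-15363722) had no top summit in any tumor preparation. It held 6, 5 and 8 summits in GNP preparations and 3, 2 and 7 in hyperplasia. Tumors stood below every other preparation, with a fitted log2 difference from GNP of -3.75 ± 0.44 (SE, limma adjusted p = 0.00100) and from hyperplasia of -3.01 ± 0.44 (SE, limma adjusted p = 0.00659). With a pseudocount of 2 the differences were -2.04 and -1.50; the call against GNP held without each preparation in turn, and that against hyperplasia did not hold without the third of hyperplasia (adjusted p = 0.0533). Within the span of Gli3 itself the mean number of summits was 1.33 in GNP, 1 in hyperplasia and 0 in tumors. Sugct, farther along, averaged 4.33, 4.67 and 0 in the same order. The gene-bearing piece before the desert had 10 in tumors and 12 in GNP and did not pass (limma adjusted p = 0.525).

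A similar picture was found between Dpp10, the gene for a potassium channel partner, and Actr3, a subunit gene of the actin-nucleating complex (chr1:124945816-125292904). Here tumors had 0 summits in each preparation, GNP had 5, 4 and 3, and hyperplasia had 3, 6 and 6. The fitted differences were -3.15 ± 0.40 from GNP (SE, limma adjusted p = 0.00174) and -3.40 ± 0.40 from hyperplasia (limma adjusted p = 0.00102), or -1.57 and -1.77 with a pseudocount of 2, and held without each preparation. The gene-bearing piece before this desert averaged 0.667 summits in tumors and 3 in GNP (limma adjusted p = 0.171). The piece after it had 18.7 and 23.7 (limma adjusted p = 0.236), and the next one 9.67 and 19 (limma adjusted p = 0.0518). Lower tumor means were thus not limited to the desert, though none of these pieces passed. Between Nell1 and Ano5 (chr7:50963290-51410006), the desert of the leading lost region, tumors had 3, 0 and 0 summits, GNP 9, 9 and 8 and hyperplasia 4, 8 and 7. Its fitted difference of -3.26 ± 0.61 from GNP (SE, limma adjusted p = 0.0174) did not pass in 5 of the 9 fits that leave out 1 preparation, the highest adjusted p being 0.103 without the second tumor preparation. The piece before it, which holds most of Nell1, had 0.667 summits on average in tumors, 10.7 in GNP and 10 in hyperplasia (tumors against GNP -3.42, limma adjusted p = 0.00203), so that the lower numbers were not limited to the desert.

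**Figure D4:**
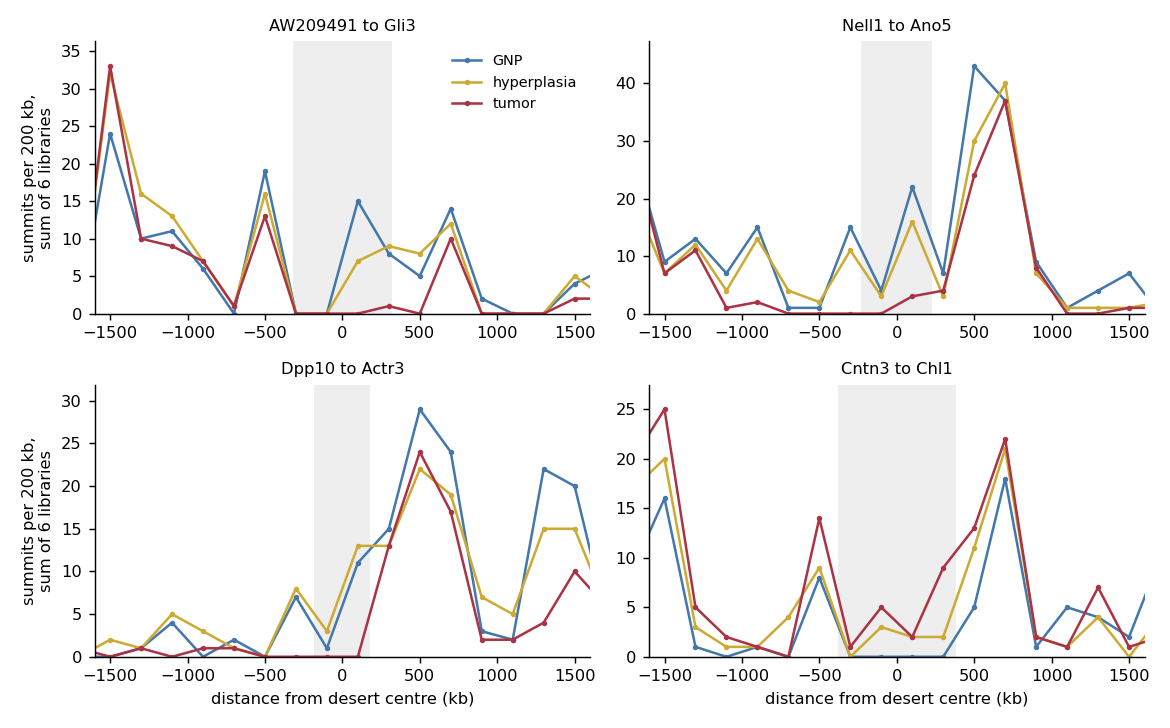
Top summits per 200 kb, summed over the 6 libraries of a stage, against the distance in kb from the centre of 4 deserts (grey band: the desert; points near its edge also count summits beyond it). Tumors (red) show no summit where GNP (blue) and hyperplasia (yellow) do in the Gli3 and Dpp10 deserts and almost none in the Nell1 desert, and more than GNP in the Cntn3 desert.

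Other deserts had more summits in tumors. Between Cntn3, a contactin gene, and Chl1, a gene of the L1 adhesion family (chr6:102664615-103410583), tumors had 6, 4 and 7 summits, and GNP had 0 in each preparation, with 1, 4 and 2 in hyperplasia. The fitted difference of tumors from GNP was 3.59 ± 0.47 (SE, limma adjusted p = 0.00174; 1.92 with a pseudocount of 2) and passed without each preparation; that of hyperplasia from GNP was 2.36 (adjusted p = 0.0398) and passed in 1 of the 9 fits that leave out a preparation (highest adjusted p = 0.130). The hyperplasia call also did not pass without the second NFIA library of hyperplasia, with a pseudocount of 2 or with a block for replicate number. This desert is on chromosome 6. Between Slitrk1 and Slitrk6, genes for synaptic adhesion proteins (chr14:109014240-110647337), tumors had 5, 2 and 6 summits, GNP again 0 in each, and hyperplasia 4 in each preparation. The fitted differences from GNP were 3.16 ± 0.43 for tumors (SE, limma adjusted p = 0.00203) and 3.17 ± 0.43 for hyperplasia (SE, limma adjusted p = 0.0138, not passing without the second or the third preparation of hyperplasia, adjusted p = 0.0748 and 0.0567). The pseudocount of 2 brought them to 1.60 and 1.58.

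In 5 more of the 10 deserts with the smallest p-values the number was higher than in GNP. Between Gata6 and Rbbp8 on chromosome 18, hyperplasia had 7 summits in each preparation, against 1, 1 and 0 in GNP, and tumors had 3, 3 and 4 (limma adjusted p = 0.0145 for hyperplasia and 0.0382 for tumors against GNP). The desert between Fermt1 and Bmp2, the gene for a bone morphogenetic protein (chr2:133046037-133452158), had 2, 1 and 0 in GNP, 6, 8 and 8 in hyperplasia and 7, 6 and 5 in tumors (limma adjusted p = 0.0366 and 0.0209). Between Klf14 and Mkln1 (chr6:31058991-31298827), where Lncpint lies, GNP had 6, 10 and 7, hyperplasia 17, 11 and 12 and tumors 20, 16 and 19 (tumors against GNP 1.23, limma adjusted p = 0.0172). The gene-bearing pieces around it were higher in tumors as well: the 3 before it averaged 62.3, 54.3 and 39.7 summits in tumors, against 49, 40 and 28.7 in GNP (limma adjusted p = 0.0456, 0.110 and 0.0681), and the one after it 11.3 in tumors against 7 in GNP (limma adjusted p = 0.235). Next to Flrt2, an axon guidance receptor gene (chr12:92994951-95592005), the numbers were 6, 5 and 4, then 8, 6 and 11, then 14, 13 and 13 (tumors against GNP 1.35, limma adjusted p = 0.0172). Between the transcription factor genes Pax1 and Foxa2 (chr2:147475050-147942876), GNP had 4 in each preparation, hyperplasia 8, 15 and 11, and tumors 8, 7 and 9 (hyperplasia against GNP 1.35, limma adjusted p = 0.0396; tumors against GNP 0.91, 0.0669). None of these 7 calls passed without each preparation in turn, with highest adjusted p-values from 0.0748 to 0.130. The hyperplasia calls of the Fermt1 and Pax1 deserts also did not pass without the second NFIA library of hyperplasia. That of the Pax1 desert further failed with 15000 top summits and with a block for replicate number (highest limma adjusted p over these settings 0.148). The tumor call of the Gata6 desert failed with that block and without chromosome 6.

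**Figure D5:**
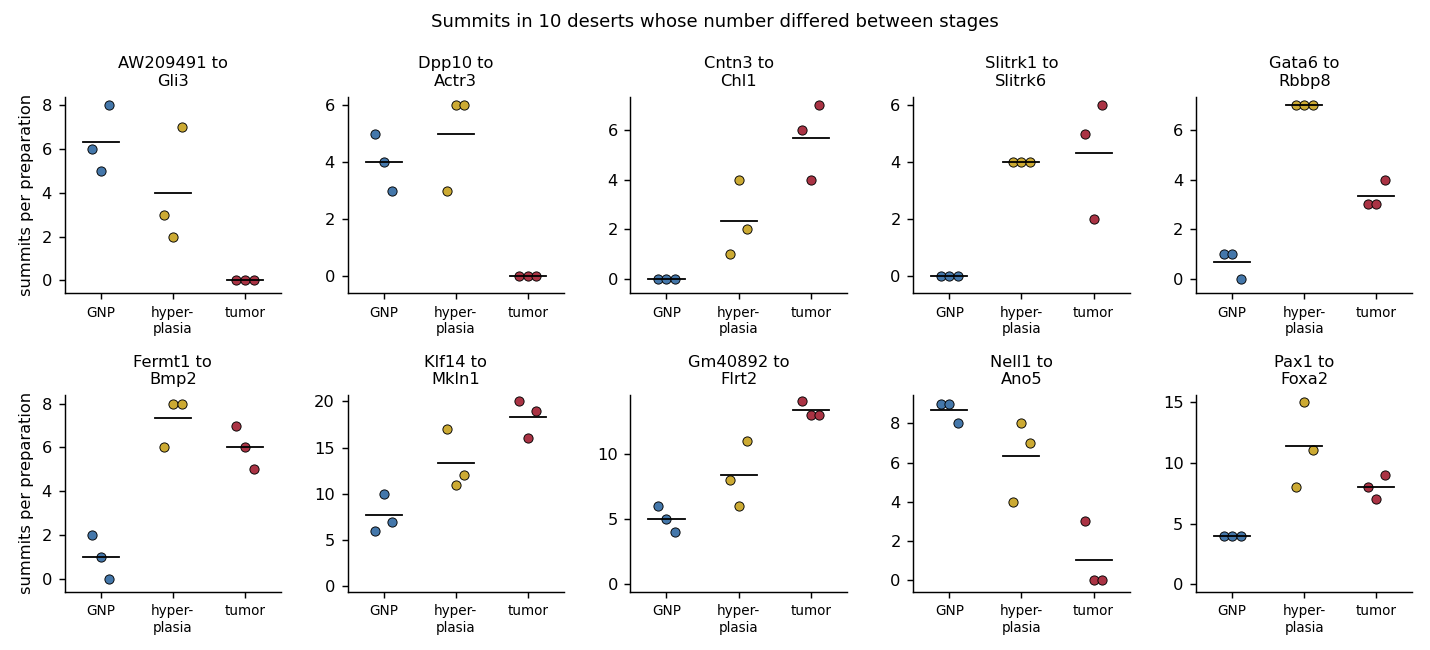
Top summits in each preparation (dots, 3 per stage; the line is their mean) for the 10 deserts with the smallest limma p-values. Tumor values are 0 in all 3 preparations of the AW209491 to Gli3 and Dpp10 to Actr3 deserts, and GNP values are 0 in all 3 of the Cntn3 to Chl1 and Slitrk1 to Slitrk6 deserts.

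The other 16 deserts that passed in at least 1 comparison were 8 with fewer summits in tumors than in GNP and 8 with more in tumors or hyperplasia than in GNP. The 3 given here, all with fewer in tumors, were chosen after their values were seen. With 20 desert regions, the desert between Mn1 and Cryba4 had the most among the 16, and had 16, 19 and 20 summits in tumors against 32, 31 and 30 in GNP (-0.75, limma adjusted p = 0.0209). Between the homeobox genes Irx2 and Irx4 tumors had 7, 4 and 1 and GNP 12, 15 and 12 (-1.86, limma adjusted p = 0.0401). Beside Dcc, a netrin receptor gene, tumors had 18, 17 and 16 and GNP 24, 26 and 26 (-0.56, limma adjusted p = 0.0415). Whether these calls hold without single preparations is not given here.

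The 10 deserts with the most regions held 23 to 32 desert regions each, and of these 10 deserts 0 passed in any comparison. First were the deserts between Rps24 and Zmiz1 (chr14:24596961-25357874) and between the proliferation marker gene Mki67 and Mgmt (chr7:135816451-136794462), with 32 desert regions each. The Zmiz1 desert averaged 52.7 ± 4.62 summits in GNP, 49 ± 4.36 in hyperplasia and 46.3 ± 2.52 in tumors (SD, n = 3 each), and the Mki67 desert 46.3 ± 3.21, 39.3 ± 4.04 and 40.3 ± 3.79. The desert beside Id2, which encodes an inhibitor of bHLH factors, held 29 (40 ± 3.61, 42 ± 5.20 and 39 ± 1 summits). Between Tmpo and Nedd1 there were 28, as between Myc and Gsdmc, where GNP had 35, 32 and 40 summits, hyperplasia 28, 26 and 29 and tumors 42, 32 and 36. Slc4a3 to Epha4 (27), Sall3 to Galr1 (26), Auts2 to Castor2 (26), Zfp608 to Gramd3 (25) and Prok2 to Rybp (23) made up the rest, and the last, at 302.2 kb the shortest, was the densest with 76.1 desert regions per Mb.

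Genes of lists chosen for this tissue, with earlier results of these data known, bordered such deserts in different shares. A desert interval with at least 3 desert regions was flanked by 4.96% of all protein-coding genes. Of the SHH pathway list 5 of 16 genes did so: Shh, the receptor partner Gas1, the transcription factors Gli2 and Gli3, and Mycn, a driver of progenitor proliferation. The deserts at Shh, Gli2 and Mycn averaged 10.3 ± 1.15, 13 ± 3.61 and 25.7 ± 1.53 summits in tumors, against 13 ± 1, 11 ± 1 and 23.3 ± 0.577 in GNP (SD, n = 3 each), and did not pass. Among granule progenitor factors 6 of 17 qualified (Barhl2, Zic1, Zic4, Pax6, Meis1 and Meis2), among granule neuron differentiation genes 4 of 17 (Etv1, Kcnd2, Cbln1 and Chd7), among the NFI family 2 of 4 (Nfia and Nfib), and among cell cycle genes 3 of 20 (Ccnd2, Mki67 and Myc). Neural developmental transcription factors did so for 36 of 50 genes, among them Sox2, Sox11, Pou3f3 and Id2, and neuronal adhesion genes for 40 of 57, among them Cadm1, Ntm, Cdh11 and Tenm2. These shares were not tested. How many listed genes border a desert with or without summits is not given, so the shares cannot tell NFI summits from the place of the genes. The NFI genes themselves had deserts with 10 regions beside Nfia and with 11 and 7 on either side of Nfib; these averaged 15 ± 0, 18 ± 2.65 and 13.3 ± 1.53 summits in tumors, against 17 ± 1.73, 19.3 ± 2.52 and 9 ± 1 in GNP, and did not pass.

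NFIA and NFIB did not differ in deserts beyond the spread of libraries. The share of top summits in deserts was 10.7% ± 1.01 in NFIA and 10.5% ± 0.610 in NFIB libraries (SD, n = 9 each), a difference of 0.188 points (exact permutation of targets within stages, p = 0.705), or -0.127 without the second NFIA library of hyperplasia (exact permutation p = 0.644). Preparation by preparation it ran from -1.35 to 2.75 points. In the limma fit by library 0 deserts and 0% of all intervals passed for NFIA against NFIB. An unadjusted p under 0.05 was found at 39 of 738 deserts and at 168 of all 2966 intervals. Neither this fit nor the permutation above paired the NFIA and NFIB libraries of a preparation. With the preparation as a block in the fit, 0 deserts and 0 of all intervals passed as well. At most 2 of the 9 NFIA libraries and at least 7 of the 9 NFIB libraries hit 7 desert regions, and 1 had the opposite pattern. The numbers among all regions are not given here, so nothing particular to deserts can be read from these. For 6 libraries title and deposited name disagree on the target, so that this comparison rests on the titles.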

How the data were processed

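Summit lists of 18 CUT&Tag libraries were used, 1 list per library. The scores are −log10 p-values, as deposited by the authors; the submitters' processing notes name Bowtie2, MACS2 and mm10, with versions not given in the sources used here, and it is not stated whether a control library entered the peak calls. Titles gave stage and target, and in 6 libraries the deposited name carries the other target. No read depth is given, so lists were equalised by rank: the 30000 top autosomal summits of each of lists of 49948 to 385466 summits were kept, ties broken by position. Regions, deserts and promoter windows were found as described above, with gene spans and sequences from RefSeq GRCm38.p6. Identical top positions made up at most 0.537% between any pair of libraries.

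Shares, ranks and Jaccard indices were averaged per preparation and compared with two-sided exact permutation tests over preparations. Summits per interval were compared with limma 3.58.1 (R 4.3.3) on log2(summits + 0.5), with trend and Benjamini-Hochberg adjustment over all 2966 intervals that averaged at least 2 summits per preparation; NFIA and NFIB were compared by library. Other steps ran in Python 3.11.15 with SciPy 1.17.1, NumPy 2.4.6, pandas 2.3.3 and matplotlib 3.10.9. Tested on simulated data for tumors against GNP, with 200 of 2944 intervals changed, the limma step recovered 57 of 100 changes of 2-fold and 92 of 100 of 4-fold, with 9 false calls. The simulated numbers varied only by random counting (Poisson), without further spread between preparations, so these rates need not hold for the data.

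Regions and deserts were named by rule: the 6 most highly ranked in all 18 libraries, the 3 leading gains and losses per pair of stages, the 3 farthest, the 3 on each side of the border, up to 5 found in all libraries of 1 stage only, the 10 deserts with most regions, up to 10 deserts by p-value, and genes of the lists beside deserts with 3 or more regions. Members, rules and lists were chosen with earlier results of these data known. A search for motifs within the regions themselves was not run. Some items that these rules name are not reported here.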

Additional observations from a re-analysis of the deposited data

Results flagged for a closer look

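Of 6 sets of 6 libraries examined for a single value far from the others, 2 had one; chance gives about 1 in 20 sets. The first NFIB library of tumors had 11.82% of its top summits in deserts, against 10.16% to 10.49% in the other tumor libraries. It also had the shortest list, with 49948 summits. The second NFIA library of hyperplasia had a top summit at 38.3% of the desert regions, against 52.5% to 59.7% in the other hyperplasia libraries. Its list had 362180 summits, and 20.4% of its top summits had the lowest score kept. The part of list length and tied scores in these values was not tested.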

How the results depend on the processing

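The lower share of desert regions hit, their lower rank and the likeness of preparations within stages kept direction and call in every alternative run for them; without each preparation in turn the values ranged from -3.89 to -3.32 points, 585 to 667 ranks and 0.0540 to 0.0825. The number of desert regions was 2387 with 15000 top summits, 6990 at 50 kb, 1739 at 250 kb and 670 when noncoding genes also end a desert.

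Differences in desert share, none of which passed, changed sign in places. Tumors minus GNP was -0.183 points with 15000 top summits, -0.0656 at 250 kb, -0.169 in NFIA libraries and -0.0767 for all summits with a score of at least 5. Without the second NFIA library of hyperplasia, hyperplasia minus GNP was -0.0378, tumors minus hyperplasia 0.203 and NFIA minus NFIB -0.127; tumors minus hyperplasia was 0.178 in NFIB libraries, and NFIA minus NFIB -0.108 with 15000 top summits. Leaving out each preparation gave -0.0872 to 0.890 for hyperplasia minus GNP, -0.116 to 0.340 for tumors minus GNP, -0.725 to 0.252 for tumors minus hyperplasia, 0.252 to 0.890 for the widest gap among 3 stages and -0.132 to 0.380 for NFIA minus NFIB.

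Gained and lost counts scale with the number of regions and the criterion. With 15000 top summits, at other distances and without single preparations, the counts are given without shares. Nothing particular to deserts can be read from those counts. With 15000 top summits 107, 88 and 37 were lost (hyperplasia against GNP, tumors against GNP, tumors against hyperplasia). At 50 kb 209, 174 and 74 were gained; at 250 kb 46, 38 and 16 were gained and 83, 93 and 26 lost. Asking for 6 libraries against 0 gave 24, 19 and 3 gained and 27, 33 and 6 lost. Without the second NFIA library of hyperplasia 229 were gained against GNP, and 123 lost in tumors against hyperplasia. Without each preparation, where fewer libraries are asked for, gains ranged over 125 to 312, 100 to 263 and 40 to 161, and losses over 183 to 341, 181 to 342 and 60 to 200.

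Deserts passing in hyperplasia against GNP numbered 1 with 15000 top summits, 3 without that NFIA library and 0 to 9 without each preparation. Of all intervals 3, 11 and 0 to 17 passed, in the same order. For tumors against GNP 44 deserts passed with random ties, 11 without chromosome 6 and 5 to 32 without each preparation. There 161, 25 and 15 to 113 of all intervals passed. Tumors against hyperplasia gave 1 desert with 15000 top summits and 1 to 3 without each preparation, where 5 and 3 to 9 of all intervals passed. Same-numbered preparations had correlations of their deviations of -0.0962 to 0.120, and the main fits did not pair them. Differently numbered preparations were not compared, so these values cannot decide whether the numbers pair the samples. With the replicate number as a block 3, 12 and 2 deserts passed, where 12, 49 and 9 of all intervals did. The desert shares then had p-values of 0.75, 1 and 0.75 (exact permutation). The cause of these shifts was not tested. The planned motif search within regions was not run, and read depth, which limits which summits are listed, is unknown.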

Other observations

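The desert between Zeb2, a repressor gene of neural development, and Acvr2a had a mean of 10.7 ± 0.577 summits in GNP, 24 ± 14.9 in hyperplasia and 22.3 ± 3.51 in tumors (SD, n = 3 each). It did not pass in any comparison, and the spread was widest in hyperplasia. Between the homeobox genes Irx3 and Irx5 the means were 19.7 ± 3.79 in GNP, 11.7 ± 2.31 in hyperplasia and 10.7 ± 3.79 in tumors (SD, n = 3 each), also without passing.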
